A study of Mus musculus with 8 samples.

Results

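Integrins are the receptors that hold cells to the extracellular matrix. Each is a pair of an alpha and a beta subunit that spans the membrane. The alpha subunit largely sets which matrix protein is bound, and the beta tail recruits talin and kindlin, which link the receptor to actin. Neural crest cells use laminin, collagen, fibronectin and vitronectin receptors of this family as they leave the neural tube and migrate. The 10 subunit genes described here are the alpha subunit genes Itga1, Itga2, Itga3, Itga4, Itga5, Itga6 and Itgav and the beta subunit genes Itgb1, Itgb3 and Itgb5. Their members on the array were all probe sets annotated with one of these symbols, 34 of the 34945 that carried a single gene symbol, and the genes are 10 of the 18193 tested.

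The arrays came from 4 lines derived from tumours (numbered 3 to 6) that MYCN-transfected JoMa1 cells had formed in immunocompromised mice, from 1 JoMa1 sample whose label gives GFP as the transfected gene, and from 3 samples of untransfected parental JoMa1, a mouse neural crest precursor line. JoMa1 itself carries a tamoxifen-activated MYC fusion, a background that all groups share. The labels speak both of 4 independent tumours and of cell lines derived from them, and the text here follows the second. They do not say whether the lines are clones, whether a single transfected stock gave rise to them, or whether the parental samples were separate cultures. P-values therefore measure the spread between these samples, which may be technical. RNA of host mouse cells would bind the same probes.

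Levels are given as RMA log2 values. Array medians ran from 6.26 to 6.30. The trpnX controls, for a bacterial transcript, read 3.56 to 4.47 on single probe sets, and this is called the control range below. The labels do not give the species of the transfected MYCN. Its mouse probe sets were read as a check, and the brightest Mycn probe set stood at 14.13, 14.08, 14.20 and 14.26 in tumour lines 3, 4, 5 and 6, at 11.73 in the library labelled GFP-transfected, and at 7.29, 7.49 and 7.49 in parental arrays 1, 2 and 3. Another Mycn probe set ran the other way, at 4.69, 4.53, 4.62 and 4.56 in those tumour lines, 4.33 in the library labelled GFP-transfected and 8.23, 8.14 and 8.01 in parental arrays, and was called lower against parental arrays in the tumour lines and in that library. The remaining one was called in neither, with 5.90 to 6.23 in tumour lines, 5.88 in the library labelled GFP-transfected and 5.63 to 5.97 in parental arrays. With the first 2 of these 3 probe sets the library labelled GFP-transfected thus differed from parental cells in the same direction as the tumour lines, which goes against its label, and every direction drawn from it below carries that limit. It also stood apart in its mean of 7 fibroblast markers, 6.27, against 8.44 to 8.56 in parental arrays, while tumour lines read 9.55 to 10.38. The mean of 9 neural crest markers was 7.84 to 8.06 in tumour lines, 7.81 in the library labelled GFP-transfected and 7.96 to 8.01 in parental arrays. Of those crest markers Snai2 was called higher and Pax3 lower in tumour lines. In parental arrays Snai2 read 11.47 to 11.60, Pax3 10.50 to 10.65, Nes 9.34 to 9.51, Twist1 9.16 to 9.43, Sox9 7.90 to 8.05 and Sox10 7.19 to 7.41. There Tfap2a read 5.48 to 5.80, Ngfr 5.23 to 5.53 and Foxd3 4.41 to 4.73, the last nearest the control range.

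The stretches just upstream of the transcription start are shown for a pair of beta subunit genes that were lower in tumour lines and a pair of alpha subunit genes that were higher. They are the 250 bases before the start, from RefSeq on GRCm38.p6, 5′ to 3′ on the gene's strand, with the letters GGGCGG (or CCGCCC, its other strand), the GC box, in capitals.
Itgb1, chr8:128685404-128685653, + strand: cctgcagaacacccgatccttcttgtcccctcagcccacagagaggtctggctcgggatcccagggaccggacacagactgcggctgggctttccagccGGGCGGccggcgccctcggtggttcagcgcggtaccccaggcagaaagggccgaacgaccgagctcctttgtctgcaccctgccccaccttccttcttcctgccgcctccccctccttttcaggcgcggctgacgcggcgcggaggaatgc
Itgb5, chr16:33829415-33829664, + strand: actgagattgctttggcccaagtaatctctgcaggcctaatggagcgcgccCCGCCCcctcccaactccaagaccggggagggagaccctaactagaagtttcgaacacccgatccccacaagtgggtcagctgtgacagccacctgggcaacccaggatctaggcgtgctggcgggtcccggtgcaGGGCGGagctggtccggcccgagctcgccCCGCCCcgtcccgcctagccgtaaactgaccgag
Itga1, chr13:115101965-115102214, - strand: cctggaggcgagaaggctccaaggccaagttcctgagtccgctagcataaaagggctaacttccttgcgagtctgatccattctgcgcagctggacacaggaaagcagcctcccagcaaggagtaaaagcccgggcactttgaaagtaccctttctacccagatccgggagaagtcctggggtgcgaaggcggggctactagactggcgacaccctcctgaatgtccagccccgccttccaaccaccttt
Itga3, chr11:95076715-95076964, - strand: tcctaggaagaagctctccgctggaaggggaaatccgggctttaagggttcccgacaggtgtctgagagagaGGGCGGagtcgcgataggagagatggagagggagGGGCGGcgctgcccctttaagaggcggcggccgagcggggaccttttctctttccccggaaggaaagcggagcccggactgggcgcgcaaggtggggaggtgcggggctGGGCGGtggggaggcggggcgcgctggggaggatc
These promoters were searched for CACGTG, the E-box that MYC proteins are known to bind. RefSeq promoters of 8 of the 10 genes matched, 9 promoters in all because Itga3 has more than 1. Itga6 and Itgb3 had no promoter here and were not searched. CACGTG was found in 0 of the 9, against 6.02% of 32851 promoters of the same length. At so low a share, 0 of 9 is a common outcome and tells little about these genes. The GC box was found in 6 of the 9, against 32.7% of all, and both Itga3 promoters are among the 6. The letters GGGCGG include a CpG, and the 9 promoters held 5 to 22 CpG, against a median of 6 over all promoters. The share over all promoters was not matched for CpG. The stretch of Itga1 shown held 0 GC boxes, those of Itga3 and Itgb5 held 3 each and that of Itgb1 held 1. These matches describe letters in this window, and binding was not measured.

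In tumour lines against parental cells the laminin receptor subunit gene Itga6 fell strongly, the shared partner gene Itgb1 and the vitronectin receptor gene Itgb5 fell modestly, and the alpha subunit genes Itga3 and Itga1 rose. In limma 5 of the 10 genes were called at an adjusted p under 0.05 (36.0% of all genes were), 2 of them higher (16.6% of all genes) and 3 lower (19.4%). Of the 5, 2 differed by at least 2-fold, Itga1 and Itga6 (8.86% of all genes did). The 4 tumour lines lay entirely on one side of the 3 parental arrays for the same 5 genes (44.4% of all genes). Read against that background, the integrin genes were called at a share of the same order as other genes. The median difference of the members was 0.04, against 0.01 over all genes. With every probe set tested singly, 14 of 34 were called (33.9% of all probe sets), 6 higher (15.5%) and 8 lower (18.4%).

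**Figure D1:**
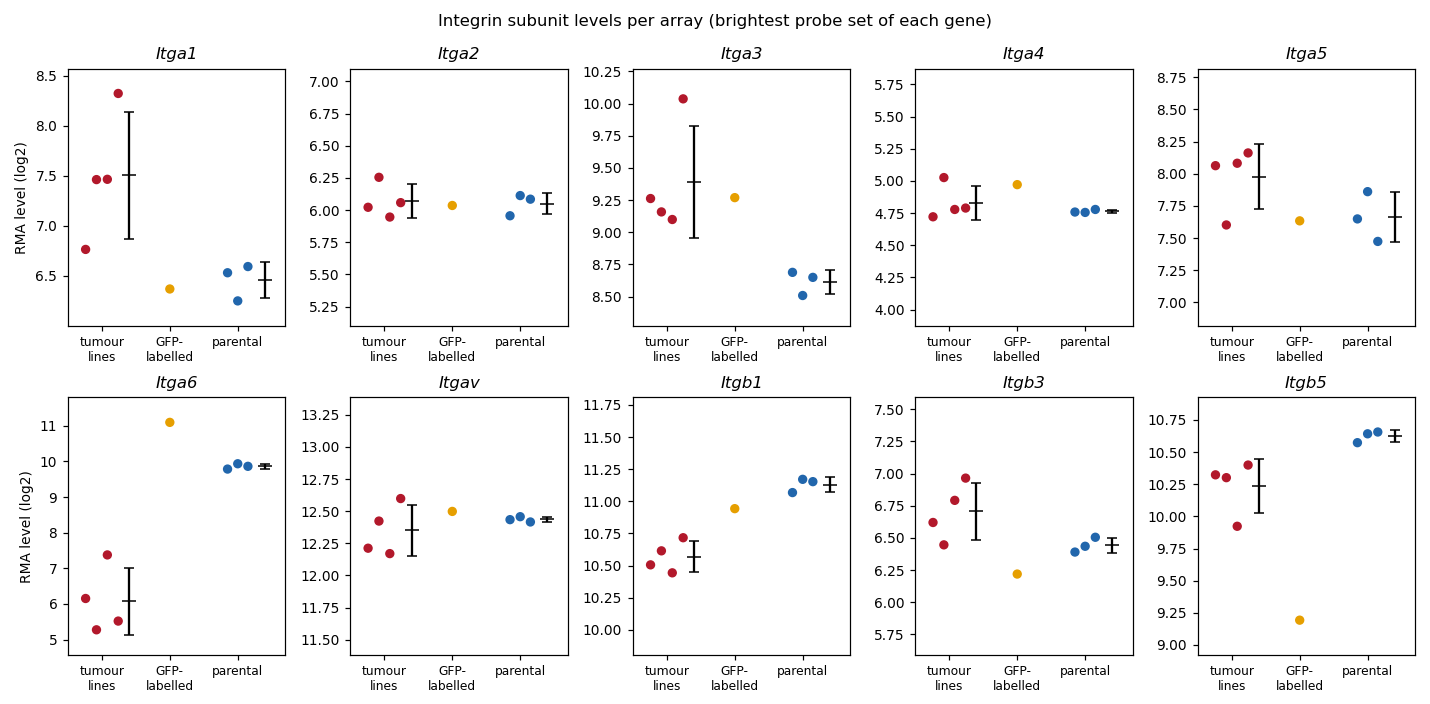
RMA level (log2) of the brightest probe set of each integrin gene on every array, with tumour lines 3, 4, 5 and 6 in that order from the left in red, the library labelled GFP-transfected in orange and parental arrays 1, 2 and 3 in blue. Black bars give the mean and SD of the tumour lines and of the parental arrays, each panel has its own axis that does not start at 0, and in Itga6 the tumour lines lie at 5.27 to 7.38, below the parental arrays at 9.79 to 9.94.

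The alpha 6 subunit, which pairs with beta 1 or beta 4 to bind laminins, gave the largest difference among the members. The brightest Itga6 probe set read 6.15, 5.27, 7.38 and 5.52 in tumour lines 3, 4, 5 and 6, 11.10 in the library labelled GFP-transfected, and 9.79, 9.94 and 9.86 in parental arrays 1, 2 and 3. All tumour lines were low, the library labelled GFP-transfected was higher than every other array, and no groups overlapped. The tumour lines differed from parental arrays by -3.78 (SE 0.44, 13.7-fold lower, limma adjusted p = 0.000246). The dimmer Itga6 probe set read 5.13, 4.75, 6.24 and 5.42 in tumour lines, 9.70 in the library labelled GFP-transfected and 8.28, 8.13 and 8.17 in parental arrays, a difference of -2.81 between tumour lines and parental arrays (SE 0.29, limma adjusted p = 0.000131 over all probe sets). With the dimmer probe set the library labelled GFP-transfected lay 1.51 above the parental arrays and was not called. Both probe sets placed tumour line 5 highest and tumour line 4 lowest among the tumour lines. Some of these tumour-line values lie close to the control range, where RMA compresses differences. The SD of Itga6 over the tumour lines was 0.94, at percentile 99.2 of all genes, against 0.08 over the parental arrays.

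The library labelled GFP-transfected differed from parental arrays by 1.24 for the brightest Itga6 probe set (SE 0.66, 95% interval -0.28 to 2.75, limma adjusted p = 0.287) and was not called. The fit shares the spread of the tumour lines with this single array. Without tumour line 5 the same difference was called (adjusted p = 0.0235, with alternatives spanning 0.0235 to 0.415). Tumour lines differed from that library by -5.02 (SE 0.64, 32.4-fold lower, limma adjusted p = 0.00054).

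**Figure D2:**
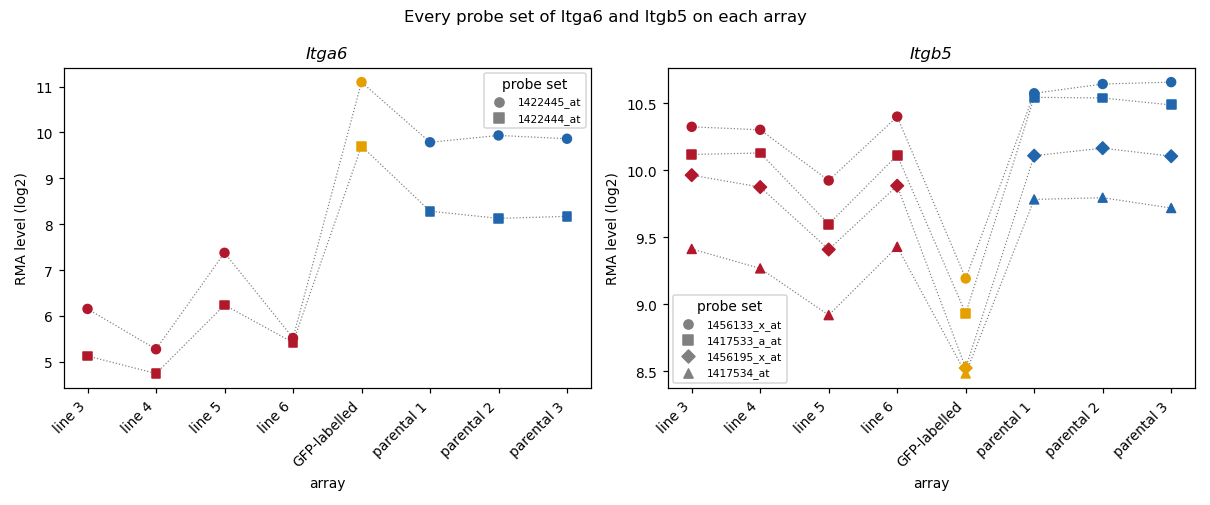
RMA level (log2) of every probe set of Itga6 (left) and Itgb5 (right) on each array, with tumour lines in red, the library labelled GFP-transfected in orange and parental arrays in blue, and dotted lines joining the values of a probe set. For Itga6 the library labelled GFP-transfected is the highest array with both probe sets (11.10 and 9.70), and for Itgb5 it is the lowest with all 4, the brightest of them at 9.19.

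Another laminin receptor subunit, alpha 3, moved the opposite way. The brightest Itga3 probe set read 9.26, 9.16, 9.10 and 10.04 in tumour lines 3, 4, 5 and 6, 9.27 in the library labelled GFP-transfected, and 8.69, 8.51 and 8.65 in parental arrays 1, 2 and 3. Every tumour line lay above every parental array, and tumour line 6 was the highest. The rise was 0.77 (SE 0.21, 1.71-fold, limma adjusted p = 0.0206). All 3 Itga3 probe sets were called higher, the others by 0.42 (SE 0.11) and 0.36 (SE 0.08). The library labelled GFP-transfected stood within the range of the tumour lines, 0.65 above parental arrays (95% interval -0.08 to 1.39, limma adjusted p = 0.241) and 0.12 below the tumour-line mean. Its difference from parental arrays spanned 0.48 to 0.72 over 15 alternatives and was called in 1 of them. With the other Itga3 probe sets that library lay 0.30 and 0.49 above parental arrays, and the dimmest was called. Once that library joined the parental arrays as a single group, the tumour-line difference was 0.61 and not called (adjusted p = 0.0916, with alternatives spanning 0.00193 to 0.0916). Leaving out a single parental array also ended the call, with 0.81 without array 1 (adjusted p = 0.0565), 0.72 without array 2 (adjusted p = 0.0784) and 0.79 without array 3 (adjusted p = 0.0613).

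Of the collagen-binding alpha subunits among the members, both of which pair with beta 1, Itga1 was called and Itga2 was not. Itga10, also a collagen receptor gene, is given with the other integrin subunits below. Alpha 1 binds collagen IV in particular. The brighter Itga1 probe set read 6.77, 7.46, 7.47 and 8.32 in tumour lines 3, 4, 5 and 6, 6.37 in the library labelled GFP-transfected, and 6.53, 6.25 and 6.59 in parental arrays 1, 2 and 3. Tumour line 3 lay barely above the parental arrays and tumour line 6 far above them. The rise was 1.05 (SE 0.31, 2.06-fold, limma adjusted p = 0.0275). The dimmer Itga1 probe set read 4.76, 5.60, 5.06 and 6.0 in tumour lines, 5.31 in the library labelled GFP-transfected and 5.19, 5.38 and 5.05 in parental arrays, with overlapping groups and a difference of 0.14 (SE 0.26, limma adjusted p = 0.732). Tumour line 6 was highest and tumour line 3 lowest among the tumour lines with both probe sets. Averaged over both, Itga1 differed by 0.59 and was not called (adjusted p = 0.131, with alternatives spanning 0.00484 to 0.131). The call of the brighter one also ended without parental array 1 (1.08, adjusted p = 0.074), without array 2 (0.94, adjusted p = 0.103) and without array 3 (1.11, adjusted p = 0.065).

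Alpha 2, the receptor subunit for collagen I on platelets and epithelia, had a single probe set. Itga2 read 6.02, 6.26, 5.95 and 6.06 in tumour lines, 6.04 in the library labelled GFP-transfected and 5.96, 6.11 and 6.08 in parental arrays. The groups overlapped, and the difference between tumour lines and parental arrays was 0.02 (95% interval -0.19 to 0.22).

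Among the alpha subunits that bind fibronectin, Itga5 encodes the main RGD-dependent receptor chain. Its brightest probe set read 8.06, 7.60, 8.08 and 8.16 in tumour lines 3, 4, 5 and 6, 7.63 in the library labelled GFP-transfected, and 7.65, 7.86 and 7.47 in parental arrays 1, 2 and 3. Tumour line 4 fell among the parental arrays and the other tumour lines lay above them. The difference was 0.32 (95% interval -0.03 to 0.66, limma adjusted p = 0.143) and was not called. With the other Itga5 probe sets all tumour lines lay above all parental arrays, and 2 of the 3 were called, by 0.54 (SE 0.10, adjusted p = 0.00365 in limma over all probe sets) and 0.34 (SE 0.09, adjusted p = 0.0214). Averaged over its 4 probe sets, Itga5 was 0.37 higher in tumour lines than in parental arrays and was called (limma adjusted p = 0.00619, with alternatives spanning 0.00619 to 0.381). Without tumour line 4 the brightest probe set was called too (0.44, adjusted p = 0.0136).

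Alpha 4, which binds fibronectin and the endothelial ligand VCAM1 and has a known part in crest cell migration, gave little signal. Its 5 probe sets read 3.53 to 5.03 over all arrays, close to the control range. The brightest Itga4 probe set read 4.72, 5.03, 4.78 and 4.79 in tumour lines, 4.97 in the library labelled GFP-transfected and 4.76, 4.75 and 4.78 in parental arrays. The groups overlapped, with a difference of 0.07 (95% interval -0.13 to 0.26), and 0 of its 5 probe sets were called between tumour lines and parental arrays.

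Alpha v is the shared partner of several beta subunits and binds vitronectin, fibronectin and latent TGF-beta. Its brightest Itgav probe set read 12.21, 12.42, 12.17 and 12.60 in tumour lines 3, 4, 5 and 6, 12.50 in the library labelled GFP-transfected, and 12.43, 12.46 and 12.42 in parental arrays 1, 2 and 3. The tumour lines lay on both sides of the tightly grouped parental arrays. The difference was -0.09 (95% interval -0.33 to 0.16, limma adjusted p = 0.607), and 0 of the 5 Itgav probe sets were called.

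**Figure D3:**
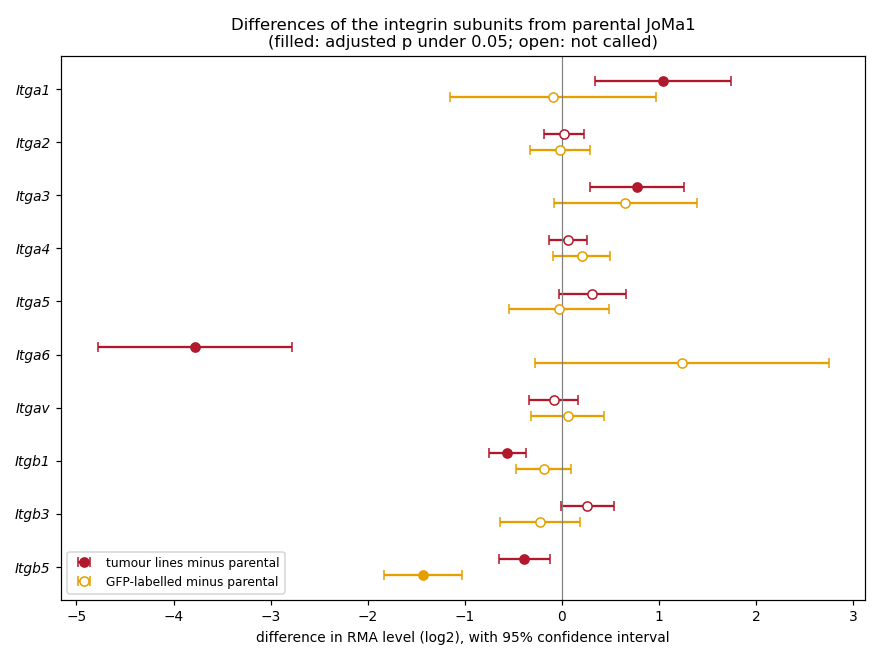
Difference in RMA level (log2) from the parental arrays for each integrin gene, for the 4 tumour lines (red) and the library labelled GFP-transfected (orange), with 95% confidence intervals from limma and filled points for an adjusted p under 0.05. For Itga6 the points lie on opposite sides of 0 (-3.78 and 1.24) and for Itgb5 the library labelled GFP-transfected lies further below 0 (-1.43) than the tumour lines (-0.39).

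The beta 1 subunit is the partner of alpha 1 to alpha 6 and of alpha v, and its tail carries talin and kindlin sites. The brightest Itgb1 probe set read 10.51, 10.62, 10.44 and 10.72 in tumour lines 3, 4, 5 and 6, 10.94 in the library labelled GFP-transfected, and 11.07, 11.17 and 11.15 in parental arrays 1, 2 and 3. Every tumour line lay below every parental array, with the library labelled GFP-transfected between them. The difference was -0.56 (SE 0.08, 1.48-fold lower, limma adjusted p = 0.000932). The next brightest Itgb1 probe sets fell too, by 0.55 (SE 0.10) and 0.38 (SE 0.08). The remaining 3 read 3.73 to 5.22 over all arrays, near the control range, and were not called. The call held in all 17 alternatives, with the average over all 6 probe sets giving the smallest difference, -0.27.

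Beta 5 pairs with alpha v to bind vitronectin and is used in uptake of dying cells. The brightest Itgb5 probe set read 10.32, 10.30, 9.92 and 10.40 in tumour lines 3, 4, 5 and 6, 9.19 in the library labelled GFP-transfected, and 10.57, 10.64 and 10.66 in parental arrays 1, 2 and 3. The order was the library labelled GFP-transfected, then the tumour lines, then the parental arrays, with no overlap. Tumour lines differed from parental arrays by -0.39 (SE 0.12, 1.31-fold lower, limma adjusted p = 0.0292). The library labelled GFP-transfected differed from parental arrays by -1.43 (SE 0.17, 2.69-fold lower, limma adjusted p = 0.00104). All 4 Itgb5 probe sets put the groups in this order. In tumour lines 3 of the 4 were called lower than in parental arrays, and the one that was not differed by -0.34 (adjusted p = 0.0748). In the library labelled GFP-transfected all 4 were called lower. The tumour-line call ended when that library was pooled with the parental arrays (-0.03, adjusted p = 0.963, with alternatives spanning 0.0135 to 0.963). It also ended without parental array 1 (-0.41, adjusted p = 0.069), array 2 (-0.38, adjusted p = 0.0893) or array 3 (-0.37, adjusted p = 0.093).

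Beta 3 is the other vitronectin receptor partner of alpha v. Its probe sets read 5.66 to 6.97 over all arrays, around the array medians and above the control range. The brighter Itgb3 probe set stood at 6.62, 6.45, 6.79 and 6.97 in tumour lines 3, 4, 5 and 6, at 6.22 in the library labelled GFP-transfected, and at 6.39, 6.43 and 6.50 in parental arrays 1, 2 and 3. Tumour line 4 lay among the parental arrays and the others above them. The difference was 0.26 (95% interval -0.01 to 0.54, limma adjusted p = 0.13). It was called without tumour line 4 (0.35, adjusted p = 0.0279) and with array weights (0.30, adjusted p = 0.0482), with alternatives spanning 0.0279 to 0.295. The dimmer Itgb3 probe set differed by 0.07 and was not called.

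**Figure D4:**
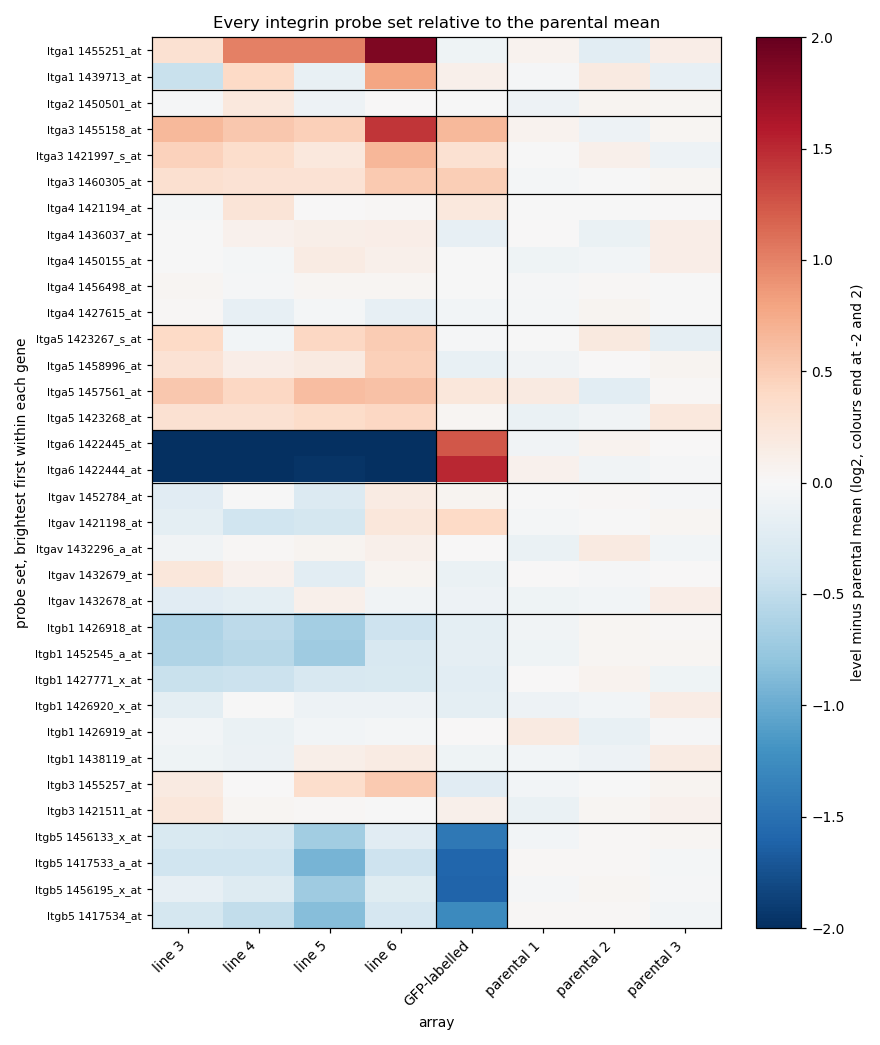
Level of each of the 34 integrin probe sets minus its parental mean (log2, red higher and blue lower, colours end at -2 and 2), with the tumour lines left, then the library labelled GFP-transfected, then the parental arrays. The Itga6 and Itgb5 blocks show all their probe sets moving together, while Itga4 and the dimmest probe sets of Itgav and Itgb1 stay near 0.

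An exact two-sided permutation of the 7 tumour-line and parental arrays, with 35 splits, cannot give a p below 0.0286. Itga3, Itga6, Itgb1 and Itgb5 reached that value and Itga1 gave 0.0571. A gene can reach it only where the groups do not overlap, which held for 44.4% of all genes. The permutation thus adds nothing to the separation of the groups given above.

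Against parental arrays the library labelled GFP-transfected was called for 1 of the 10 genes, Itgb5, which was lower (16.1% of all genes were called, 7.43% higher and 8.66% lower). Itgb5 was also the 1 member past 2-fold (5.75% of all genes). The single array lay outside the parental range for 7 of the 10 genes (71.2% of all genes). Over single probe sets 5 of 34 were called (14.4% of all), the 4 of Itgb5 lower (6.76%) and 1 of Itga3 higher (7.59%). Tumour lines against that library gave 3 of 10 (30.3% of all genes, 14.0% higher and 16.4% lower), namely Itga6 lower, Itgb1 lower (-0.37, SE 0.12, limma adjusted p = 0.0488) and Itgb5 higher (1.04, SE 0.17, limma adjusted p = 0.00183). The Itgb1 call ended in 9 of its 15 alternatives, whose adjusted p spanned 0.0187 to 0.356, among them leaving out any parental array or tumour line 3, 4 or 5. Itga6 and Itgb5 differed by at least 2-fold (12.0% of all genes), and the tumour lines lay wholly to one side of that library for 5 of the 10 genes (68.0% of all genes). Over single probe sets 6 of 34 were called (29.0% of all), 4 higher (12.0%) and 2 lower (17.0%). These comparisons share arrays, so their differences are not independent. Its 1 array borrows the spread of the other groups in the fit.

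Other integrin subunits were mostly not called. Of 14 measured, 0 rose and 2 fell in tumour lines against parental arrays, with a median difference of 0.10. Over all genes 16.6% were called higher and 19.4% lower, with a median of 0.01, so these counts do not exceed the background. Itgb2, the leukocyte beta subunit gene, read 4.88, 4.47, 4.87 and 4.74 in tumour lines, 9.26 in the library labelled GFP-transfected and 5.84, 6.22 and 6.09 in parental arrays, a fall of 1.31 in tumour lines (SE 0.13, limma adjusted p = 0.000101). Itga10, a collagen receptor gene of cartilage, fell by 0.96 (SE 0.09). The other beta partner of alpha 6, Itgb4, read 5.68 to 6.05 in tumour lines, 5.42 in the library labelled GFP-transfected and 5.58 to 5.72 in parental arrays, and was not called. The mean of 9 macrophage and leukocyte markers was 5.92 to 6.01 in tumour lines, 6.24 in the library labelled GFP-transfected and 5.64 to 5.82 in parental arrays. Itgb2 is itself among these 9, and its level of 9.26 in the library labelled GFP-transfected raises the mean there. That mean is therefore not a reading apart from Itgb2. In tumour lines 3 of them were higher, Cd14 (8.98 to 9.63, against 7.29 to 7.51 in parental arrays), Cd68 (6.30 to 6.62, against 5.69 to 5.76) and Lyz2 (6.01 to 6.34, against 5.61 to 5.83), and the 1 lower was Itgb2 itself. The pan-leukocyte marker gene Ptprc read 4.05 to 4.14 in tumour lines, 4.25 in the library labelled GFP-transfected and 3.90 to 4.37 in parental arrays, inside the control range. The means of 7 endothelial markers (5.40 to 5.58 in tumour lines, 5.36 to 5.50 in parental arrays) and of 8 epithelial markers (5.72 to 5.85 and 5.68 to 5.79, in the same order) overlapped, and 0 of either list was called by limma between these groups. That of 5 platelet markers was 7.30 to 7.82 in tumour lines and 6.43 to 6.48 in parental arrays, with Ppbp the 1 called. In the library labelled GFP-transfected these means were 5.65, 5.57 and 6.39. There the endothelial marker Cdh5 was called higher than in parental arrays (6.71, against 4.63 to 4.84) and the epithelial marker Epcam lower (7.61, against 8.21 to 8.41). The fibroblast markers were higher in tumour lines for 4 of 7 and lower for 0. What part other cell types had in the integrin differences was not tested.

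Ligands of the alpha 3 and alpha 6 receptors and of alpha 1 lie in the basement membrane. Of 16 collagen IV, laminin and nidogen genes measured, 0 rose (16.6% of all genes did) and 7 fell in tumour lines (19.4% of all genes), with a median difference of -0.39 against 0.01 over all genes. The collagen IV chain gene Col4a5 read 5.22, 7.25, 4.39 and 6.41 in tumour lines, 7.60 in the library labelled GFP-transfected and 10.04, 9.79 and 10.04 in parental arrays, a fall of 4.14 (SE 0.59, limma adjusted p = 0.000732). The laminin-binding linker gene Nid1 fell by 2.77 (SE 0.19). Col4a1 (-7.10) and Col4a2 (-6.18) fell furthest. Against parental arrays the library labelled GFP-transfected was also called lower for Col4a1 (-1.05) and Col4a2 (-1.19).

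Of 6 fibrillar collagen genes 2 rose (16.6% of all genes) and 4 fell in tumour lines (19.4%), with a median difference of -0.47 against 0.01 over all genes. Col1a2 rose by 2.99 (SE 0.34) and Col1a1 by 0.61 (SE 0.09), whereas Col11a1 fell by 2.77 (SE 0.13) and Col5a2 by 1.51 (SE 0.51). The library labelled GFP-transfected was called lower for all 6 against parental arrays (8.66% of all genes), with a median of -2.21, and with that library counted as parental 1 of the 6 was higher and 1 lower.

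Of 16 genes for RGD-bearing or cell-bound ligands 5 rose and 4 fell in tumour lines, with a median difference of -0.02. The count of rises lies above the 16.6% higher over all genes, and the count of falls lies near the 19.4% lower. Neither was tested against these shares. The largest rises were those of the matricellular protein gene Ccn2 (2.65, SE 0.20) and of Npnt, which encodes nephronectin, a basement membrane protein (1.81, SE 0.28). Vcam1, the alpha 4 ligand gene, fell by 1.86 (SE 0.20), and Tnc, which encodes tenascin-C, by 1.44 (SE 0.21). Counting the library labelled GFP-transfected as parental, 4 were higher and 2 lower.

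**Figure D5:**
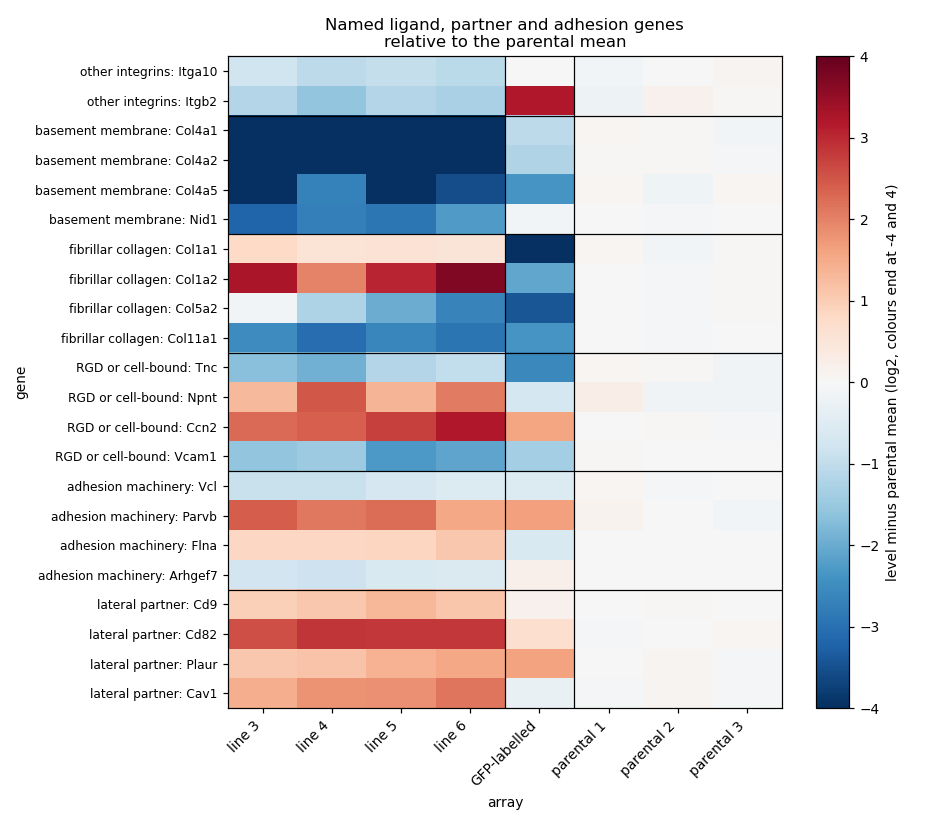
Level minus parental mean (log2, red higher and blue lower, colours end at -4 and 4) of the called ligand, partner and adhesion genes of largest difference, with the tumour lines left, then the library labelled GFP-transfected, then the parental arrays. Col4a1 and Col4a2 are dark blue in all 4 tumour lines (-7.10 and -6.18 on average), while Itgb2 is red in the library labelled GFP-transfected, where it reads 9.26.

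In the machinery that binds integrin tails, 4 of 28 genes rose and 6 fell in tumour lines, with a median difference of -0.11. These counts lie near the 16.6% higher and 19.4% lower over all genes. Parvb, whose product binds integrin-linked kinase, rose by 2.08 (SE 0.19), and the library labelled GFP-transfected exceeded the parental arrays by 1.65. The actin cross-linker gene Flna rose by 0.91 (SE 0.08). The talin-binding vinculin gene Vcl fell by 0.76 (SE 0.10), and Arhgef7, an exchange factor gene for RAC and CDC42, by 0.70 (SE 0.08).

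Lateral partners of integrins in the membrane gave 8 higher and 3 lower of 14 in tumour lines, beside 16.6% higher and 19.4% lower over all genes, and a median difference of 0.54 against 0.01 over all genes. The tetraspanin gene Cd82 read 10.08, 10.34, 10.32 and 10.31 in tumour lines, 8.15 in the library labelled GFP-transfected and 7.42, 7.46 and 7.57 in parental arrays, a rise of 2.78 (SE 0.09, limma adjusted p = 2.32e-07). The caveolin gene Cav1 rose by 1.81 (SE 0.14), the urokinase receptor gene Plaur by 1.29 (SE 0.12) and the tetraspanin gene Cd9 by 1.12 (SE 0.09).

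The genes whose profiles over the 8 arrays, taken relative to the parental mean, lay closest to that of Itga6 were Ankrd6, Galnt12 and Pag1, at Euclidean distances of 1.39, 1.69 and 1.76 log2 units. Ankrd6 read 6.55, 6.42, 7.18 and 6.88 in tumour lines, 11.15 in the library labelled GFP-transfected and 10.54, 10.53 and 10.52 in parental arrays. Those closest to Itga1 were Tmie (0.54), Ctnnd2 (0.65) and Als2cl (0.65). In Als2cl tumour line 6 was also the highest, at 7.69, with 5.72, 6.26 and 6.44 in tumour lines 3, 4 and 5, 5.76 in the library labelled GFP-transfected and 5.61 to 5.79 in parental arrays.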

How the data were processed

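RNA of 8 mouse samples was read on 8 Affymetrix arrays. The deposited values are on the log2 scale, 1 per probe set and array, and the authors made them with RMA and Partek, per the submitters' processing notes, which give no versions. For the genome build, one was not given in the sources used here. Because RMA gives all arrays a common distribution and compresses weak signals, levels are relative to the whole array and small differences of dim probe sets are understated. The number of arrays limits the precision.

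Of 45101 probe sets, 64 controls, 932 with several gene symbols and 9160 with none were left out. Each of 18193 genes took its brightest probe set by mean over the arrays, and all 34945 probe sets were also tested singly. Levels of different genes were not compared, since probe sets differ in response. The fit was limma 3.58.1 in R 4.3.3 (lmFit, eBayes), 1 coefficient per group over 8 arrays, two-sided, with Benjamini-Hochberg adjustment over all genes or probe sets. A call is an adjusted p under 0.05. Differences carry standard errors (SE) or 95% intervals from this fit.

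Named genes were all members, Mycn, up to 4 called members of largest difference in each list of ligands, partners and adhesion genes, and the 3 genes nearest in profile to the members of largest rise and fall. Other genes named for context (Itgb4, Snai2, Pax3, Nes, Twist1, Sox9, Sox10, Tfap2a, Foxd3, Ngfr, Ptprc, Cd14, Cd68, Lyz2, Cdh5, Epcam, Ppbp) were chosen after their values were seen. The members and lists were chosen with earlier results of these data known. List genes with no probe set of their own were not analysed here. Alternatives were the average of a gene's probe sets, the table without _x_at or _s_at probe sets, only genes above the median level, a trended and robust prior, array weights, repeated quantile normalization, median centring, pooling or leaving out the library labelled GFP-transfected, and leaving out each other array.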

Additional observations from a re-analysis of the deposited data

Results flagged for a closer look

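Dixon's test was applied to the 4 tumour lines for 34 integrin probe sets and 29 other named genes. Of these 63, 7 had 1 line far from the others, where chance flags about 1 in 20 of independent items. The 63 are not independent, since probe sets share genes, and most of the other genes were chosen for large differences. The count is therefore not read as an excess. Tumour line 5 was low for Itgb5, at 9.60 with its second brightest probe set and 9.41 with the next brightest. Tumour line 6 was high for the dimmest Itga3 probe set, at 6.64, and for Flna, at 12.27. Tumour line 4 was low for a dim Itgb1 probe set, at 3.85, inside the range of the negative controls. Tumour line 3 was high for Col1a1, at 11.63, and low for Cd82, at 10.08.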

How the results depend on the processing

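No difference of a member changed sign where it was called. Itga6 and Itgb1 were lower in tumour lines than in parental arrays, with an adjusted p under 0.05, in all 17 alternatives each, with Itga6 between -4.21 and -3.30 and Itgb1 between -0.61 and -0.27. The number of members called in this comparison (5, with 2 higher) was 3, with 1 higher, when the library labelled GFP-transfected was pooled with the parental arrays, and 1 was higher among genes above the median level, where Itga1 was not tested. Of the probe sets, 9 in place of 14 were called with that pooling. With 1 array left out at a time, the members called ranged from 2 to 7, those higher from 0 to 4 and the probe sets called from 8 to 17. Without any single parental array 2 members were called, Itga6 and Itgb1. Leaving out an array leaves less data for every gene. The share of all genes called in each alternative is not given, here or for the gene lists above. These counts are therefore not set against a background. For the library labelled GFP-transfected against parental arrays, 1 to 2 members were called. No paired analysis was possible because the labels give no link between a tumour line and a parental array. Dim probe sets, such as those of Itga4, limit what could be seen at this signal over background.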

Other observations

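With the brightest probe set of each gene, tumour line 6 had the highest level of the 4 tumour lines for 7 of the 10 integrin genes. These were Itga1, Itga3, Itga5, Itgav, Itgb1, Itgb3 and Itgb5, and line 6 was highest for 21.2% of all 18193 genes. Tumour line 4 was highest for Itga2 and Itga4, and tumour line 5 for Itga6. Every probe set of Itga1 and Itga3 put tumour line 6 highest, but dimmer ones of other genes did not all do so. Tumour line 6 was lowest with the dimmer Itgb3 probe set (5.78). Single dimmer probe sets put tumour lines 4 (10.13) and 3 (9.96) highest for Itgb5, and tumour line 5 (6.37) for Itga5. These orders were seen in the values and not tested, and the members share the array. Itgb7, a leukocyte beta subunit gene chosen after its values were seen, read 10.31 in the library labelled GFP-transfected and 7.69 to 7.80 in parental arrays, with 7.54 to 7.95 in tumour lines.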
